A study of Homo sapiens with 2 samples.

Results

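The dual specificity phosphatases described here are 10 genes named DUSP, of which 9 (DUSP1, DUSP3, DUSP5, DUSP6, DUSP7, DUSP10, DUSP12, DUSP14 and DUSP16) were among the 12014 genes with values and DUSP4 was not listed. They were chosen by gene symbol as DUSP genes that act on MAP kinases or other targets, and the group was selected on the measured values of these libraries, because the low level of DUSP3 with the KIAA1429 shRNA was already known. The contrast between the libraries is therefore a description for these genes, with no test. ACHN, an established human renal cell carcinoma line, received lentiviral shRNA, directed at KIAA1429 (shKIAA1429) or serving as negative control (shNC), and both were kept in puromycin to select stable cells. The paper describes 2 shRNAs against KIAA1429, and which of them was sequenced is not named. There was 1 library of poly(A) RNA with shKIAA1429 and 1 with shNC. The spread between cultures therefore cannot be estimated, and differences stand without replicates or tests. In the sample labels the first library is termed a knockout, although the methods describe knockdown by shRNA. KIAA1429 itself, listed as VIRMA, was at 3.92 FPKM with shNC and 3.22 FPKM with shKIAA1429, or 82.1% of the control. The paper reports a significant loss of its mRNA by RT-qPCR and of its protein by western blot in ACHN cells carrying these shRNAs. How the sequenced level relates to those assays was not tested. FPKM is the number of sequenced fragments divided by gene length and by the mapped fragments of the library, so that levels of different genes can be set side by side. Of 10 markers of renal epithelium and renal carcinoma, 9 were listed, from LHX1 at 11.0 FPKM to KRT19 at 292 FPKM with shNC, and CA9 was not listed. None of the 4 endothelial markers were listed (0 of 4), 2 of 5 fibroblast markers reached at most 1.62 FPKM, and 1 of 5 leukocyte markers, CD68, was at 3.87 and 2.06 FPKM.

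Dual specificity phosphatases remove phosphate from tyrosine and from serine or threonine in the same protein. MAP kinases (ERK, JNK and p38) are active when a threonine and a tyrosine of their activation loop are both phosphorylated, and the MAP kinase phosphatases among the DUSP proteins switch them off by removing both. Several DUSP genes are themselves transcribed in response to MAP kinase signaling and so form a negative feedback loop, whereas the small atypical DUSP proteins, such as DUSP3 (VHR), lack the domain with which the classical members bind their kinase. KIAA1429 is a subunit of the complex that writes N6-methyladenosine (m6A) on mRNA, mainly in 3′ UTRs and near stop codons. No m6A was measured in these libraries.

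The chemistry that defines the family is carried by a short signature, a histidine and a cysteine that is followed after 5 further residues by an arginine. The cysteine attacks the phosphate and the arginine holds it. A search of the translated GENCODE 29 coding sequences found the signature in each of the 9 listed members. The search required the histidine, the cysteine and the arginine, so every match shares them by construction. The 24 bases that encode the signature are shown 5′ to 3′. The codons of the cysteine and arginine are in capitals, because these residues carry out the chemistry named above.
DUSP1: cacTGCcaggcaggcatttccCGG
DUSP3: cacTGCcgggaaggttatagcCGC
DUSP5: cacTGTgaggctgggatctccCGT
DUSP6: catTGCttggctggcattagcCGC
DUSP7: cacTGCctggcaggcatcagcCGC
DUSP10: cacTGCcaggctggggtgtccCGC
DUSP12: cacTGTcatgcaggagtcagtCGA
DUSP14: cacTGTgctgcaggggtgagcCGC
DUSP16: cacTGTttagctgggatctccCGC

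In DUSP3 these bases lie in the coding sequence at chr17:43769777-43769800 of GRCh38 on the minus strand and encode residues 123 to 130 of a protein of 185 residues, with the cysteine at residue 124. In DUSP1 they lie at chr5:172769074-172769097, and in DUSP6 at chr12:89349503-89349526, both on the minus strand. In DUSP12 an intron lies inside the 24 bases. DUSP3 had the shortest protein of the 9 and DUSP16, with 665 residues, the longest. In 36 pairwise local alignments the proteins were identical at a median of 37.0% of the aligned residues. DUSP6 and DUSP7, the cytoplasmic ERK phosphatases, were the closest pair at 72.9% over 362 aligned residues, and DUSP1 and DUSP5, both nuclear, followed at 50.1% over 355. DUSP3 lay between 34.97% and 40.3% of identity with the other members, the highest value being with DUSP7.

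DUSP3 was the member whose level differed most between the libraries. It was at 36.8 FPKM with shNC, against 10.01 FPKM under shKIAA1429, so that 27.2% of the control level was left. On the scale used for all changes below, the log2 ratio of shKIAA1429 to shNC after adding 1 to each FPKM value, its change was -1.78. Changes of weakly expressed genes come out too small on this scale. DUSP3 held rank 16 from the lowest among the 10708 genes whose mean FPKM reached 1, between TMEM250 at -1.79 and RNF185 at -1.74. In bulk RNA, fewer cells that express DUSP3 and less DUSP3 RNA per cell cannot be told apart. With a pseudocount of 5 in place of 1 its change was -1.48, which is inside the limit of 1.5 used for all genes. Under the other pseudocount and scalings it lay between -1.87 and -1.67.

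The DUSP3 gene (ENSG00000108861.8_2) is placed in the files on chromosome 17 from 41843489 to 41856356 on the minus strand. The build is not named in the sources used here, but the identifiers carry the suffix of GENCODE genes mapped to GRCh37. The nearest listed genes on either side did not share the difference in level. ETV4, a transcription factor of the ETS family, was at 3.75 FPKM with shNC and 3.73 FPKM with shKIAA1429. MPP3, a membrane scaffold gene, was at 2.32 and 2.49 FPKM. Over the 18 nearest neighbours of the 9 members, log2 changes ran from -0.64 to 0.75 and 0 passed 1.5. The ends of this range were FCRLB, at 0.557 FPKM with shNC and 0 with shKIAA1429, and NEURL1B, at 0.0573 and 0.774 FPKM. Genes under 1 FPKM in both libraries cannot pass 1.5 with a pseudocount of 1, so for them the count says nothing. Among the listed genes, 0 overlapped a member. Of the genes of any type in GENCODE 29, 3 overlapped a member, DUSP1, DUSP6 or DUSP16, and each was a noncoding gene on the opposite strand.

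**Figure D1:**
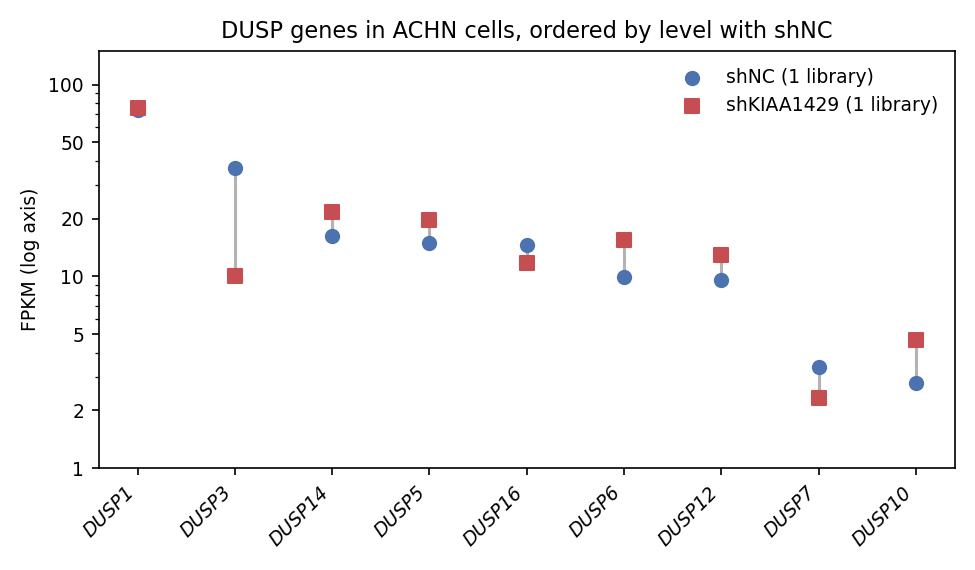
FPKM (log axis) of the 9 listed DUSP members with shNC (blue circles) and shKIAA1429 (red squares), 1 library each, ordered by level with shNC. DUSP3 is at 36.8 and 10.01 FPKM, DUSP1 is at 74.1 and 75.1 FPKM, and the other members lie between 69.0% and 167% of their level with shNC.

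The nuclear members DUSP1 and DUSP5 are rapidly induced by growth factors and stress. DUSP1 (MKP-1), which acts on p38, JNK and ERK, was at 74.1 FPKM with shNC and 75.1 FPKM with shKIAA1429. It was the most abundant member in both libraries, and its log2 change of 0.02 was the smallest of the 9 on the main scale. After rescaling each library to the same summed FPKM over all genes, DUSP1 was at 0.20 and DUSP16, at -0.12, was closer to no change. DUSP5, which acts on ERK in the nucleus, was at 14.9 and 19.7 FPKM, a log2 change of 0.38. DUSP4 (MKP-2), the other nuclear member named, was not listed and was not analysed here.

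DUSP6 (MKP-3) and DUSP7 hold ERK in the cytoplasm and dephosphorylate it there. Although these proteins are the closest pair, their genes lay on opposite sides of the control. DUSP6, a gene induced by ERK signaling, was at 9.94 FPKM with shNC and 15.4 FPKM with shKIAA1429. Its log2 change of 0.59 was the highest of the 9 members on the main scale, closely followed by DUSP10 at 0.58. Which of these was higher depended on the scale. With a pseudocount of 0.1 DUSP10 was at 0.72 and DUSP6 at 0.63, and DUSP10 was also higher after both rescalings. With a pseudocount of 5 and after centring DUSP6 was higher. DUSP7 was at 3.37 and 2.33 FPKM, a log2 change of -0.39.

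DUSP10 (MKP-5) and DUSP16 (MKP-7) act mainly on JNK and p38, and their log2 changes also had opposite signs. DUSP10 was at 2.77 FPKM with shNC and 4.63 FPKM with shKIAA1429, a log2 change of 0.58. DUSP16 was at 14.6 and 11.8 FPKM, a log2 change of -0.29. DUSP10 was the least abundant member with shNC and DUSP7 with shKIAA1429.

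The other atypical members did not share the low level of DUSP3. DUSP12, which carries a zinc-binding domain beside its phosphatase domain, was at 9.56 FPKM with shNC and 13.0 FPKM with shKIAA1429, a log2 change of 0.40. DUSP14 (MKP-6) was at 16.2 and 21.6 FPKM, a log2 change of 0.39. RefSeq lists pseudogenes of DUSP5 and DUSP12, and how the authors' software divided reads between a gene and its copies was not tested.

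Of the 9 listed members, 1 was lower by more than 1.5 on the log2 scale, against 0.252% of the 10708 genes, and 0 were higher, against 0.392%. Since this contrast chose the members, nothing is read from the count. With a limit of 1 the same counts were 1 and 0, against 0.897% lower and 1.62% higher among all genes. A log2 change above 0 was found for 6 of the 9, against 57.3% of all genes, and DUSP1 was below 0 (-0.038) after centring on the median of all genes. The median of the 9 was 0.38 and that of all genes 0.06. The 8 members other than DUSP3 lay between -0.39 and 0.59, a range in which 6 of them were within 0.5 of no change, as were 84.0% of all genes.

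The order of the members by level differed between the libraries mainly through DUSP3. With shNC the order from the highest was DUSP1, DUSP3, DUSP14, DUSP5, DUSP16, DUSP6, DUSP12, DUSP7 and DUSP10. With shKIAA1429 it was DUSP1, DUSP14, DUSP5, DUSP6, DUSP12, DUSP16, DUSP3, DUSP10 and DUSP7, so DUSP3 went from place 2 to place 7. DUSP3 made up 20.2% of the summed FPKM of the 9 members with shNC and 5.77% with shKIAA1429. The sum itself was 182 and 174 FPKM, and the sum without DUSP3 was 145 and 164 FPKM. Among all 12014 listed genes, the level of DUSP3 was at the 93.8 percentile with shNC and at the 70.5 percentile with shKIAA1429, whereas that of DUSP1 was at the 97.2 and 97.1 percentile. With 1 library per group, no neighbours in these orders can be called different or alike.

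**Figure D2:**
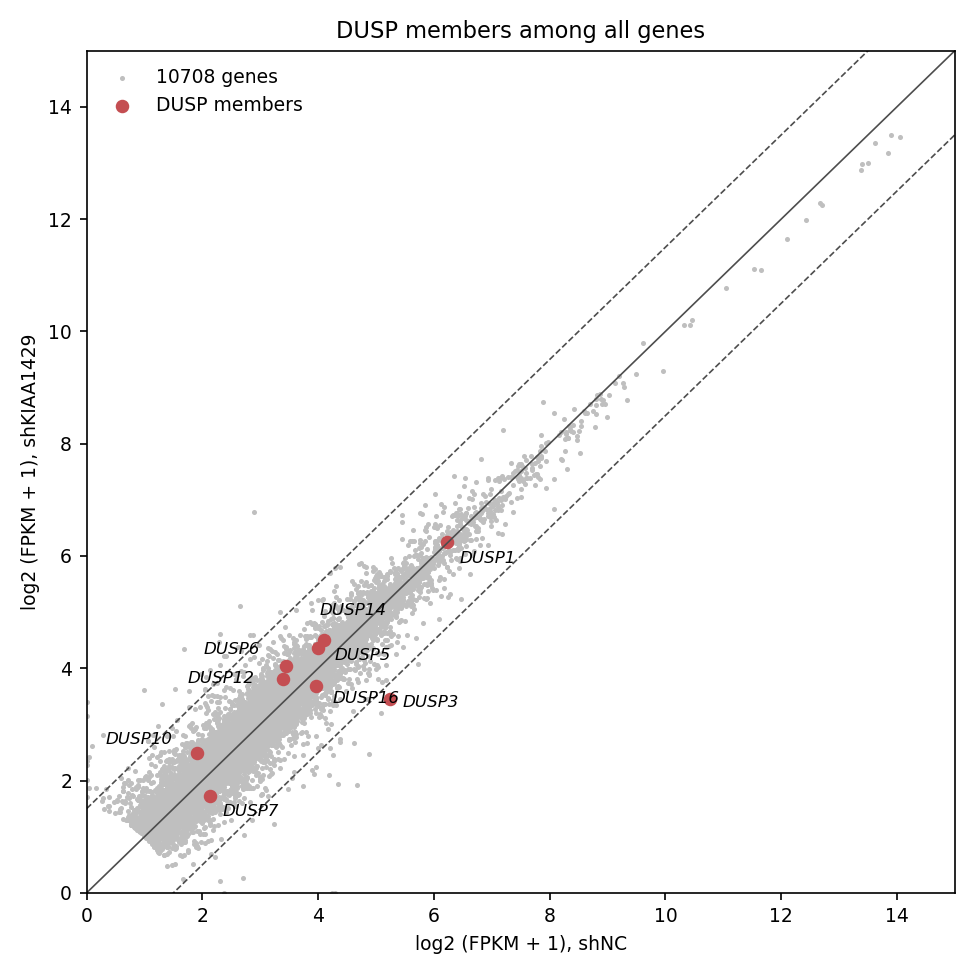
Level of each of the 10708 genes whose mean FPKM reached 1, as log2 (FPKM + 1), with shNC (horizontal axis) and shKIAA1429 (vertical axis), with the 9 DUSP members in red. The solid line marks equal levels and the dashed lines a log2 change of 1.5 in either direction, and DUSP3 is the member that lies outside them.

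Of 21 further symbols of DUSP genes and their relatives STYX and STYXL1, 10 were listed and 6 of these reached a mean FPKM of 1. Their log2 changes lay between -0.30 and 0.35 with a median of -0.07. Past 1.5 there were 0, against 0.392% higher and 0.252% lower among all genes. DUSP23, a small atypical phosphatase, was the most abundant at 40.4 FPKM with shNC and 32.7 FPKM with shKIAA1429. DUSP11, an RNA phosphatase of the nucleus, was at 9.62 and 12.5 FPKM and was the gene of these 6 that was higher with shKIAA1429 on the main scale. After rescaling each library to the same summed FPKM, which moved the median of all genes up by 0.18, STYX and STYXL1 were also above 0, at 0.15 each, and the median of the 6 was 0.065. STYXL1, which has lost catalytic activity, was at 19.5 and 19.1 FPKM, and STYX, also a pseudophosphatase, was at 3.57 and 3.51 FPKM. DUSP8 was at 2.14 and 1.69 FPKM and DUSP18 at 1.42 and 1.24 FPKM. The 4 others, DUSP9, DUSP19, DUSP22 and DUSP28, were below 1 FPKM in both libraries. At such levels a log2 change with a pseudocount of 1 cannot pass 1.5. DUSP22 was at 45.1% and DUSP9 at 51.3% of the control, and DUSP19 at 152% and DUSP28 at 131%. DUSP3 was the sole gene past 1.5 among the 19 that were listed. However, these 4 could not have passed it, and the low level of DUSP3 was known beforehand.

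**Figure D3:**
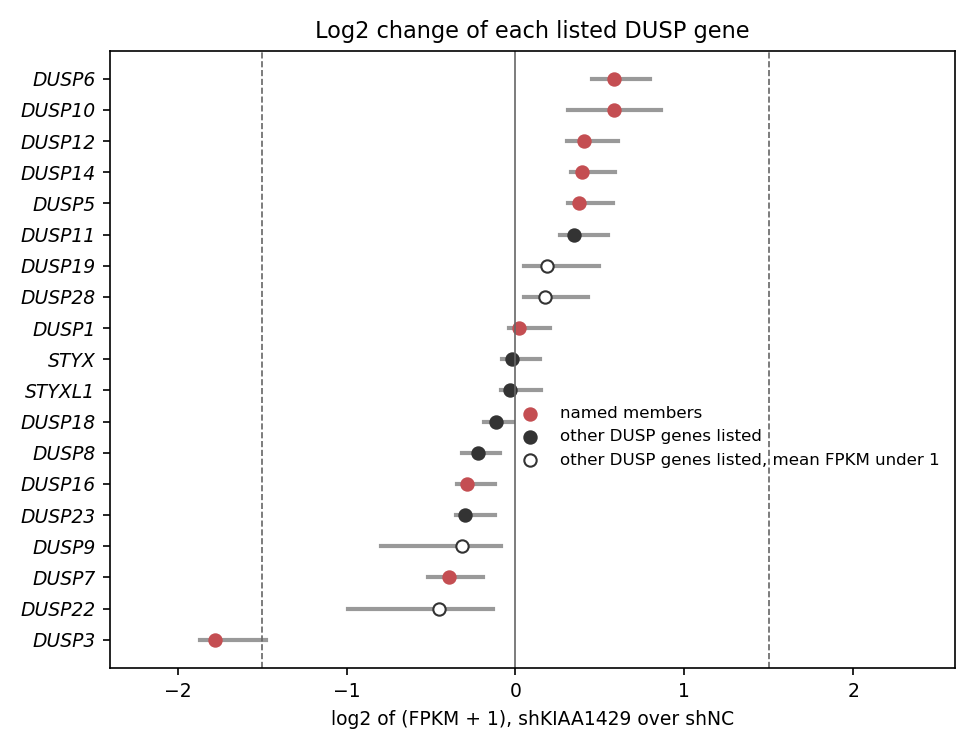
Log2 change (shKIAA1429 over shNC, FPKM + 1) of the 19 listed DUSP genes and relatives. Points are the main values, and grey bars span the values under the 5 other pseudocounts and scalings. Open points mark genes with a mean FPKM under 1. These genes were under 1 FPKM in both libraries and could not pass 1.5 on the main scale. Dashed lines mark 1.5 in either direction, which is passed by DUSP3 at -1.78 alone.

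The genes nearest to DUSP3 in their pattern were found by the distance between their log2 (FPKM + 1) in the 2 libraries and that of DUSP3. NFIX, a transcription factor of the nuclear factor I family, was nearest at a distance of 0.31 and was at 32.8 FPKM with shNC and 8.20 FPKM with shKIAA1429. FOXM1, a transcription factor of the G2/M phase, was at 33.2 and 12.5 FPKM. SNRPA, a protein of the U1 snRNP, was at 35.2 and 12.9 FPKM, AKAP2, an anchor of protein kinase A, at 28.1 and 9.94 FPKM, and PGRMC2, a heme-binding membrane protein, at 31.9 and 13.0 FPKM. The measure rests on 2 libraries.

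The MAP kinases are the kinases on which many DUSP proteins act. Of 14 MAP kinase genes, 11 were listed, and 4 were higher and 7 lower with shKIAA1429, against 57.3% higher among all genes. Past 1.5 there were 0, against 0.392% higher and 0.252% lower among all genes. ERK1 (MAPK3) was at 9.50 FPKM with shNC and 7.34 FPKM with shKIAA1429. JNK1 (MAPK8) was at 5.24 and 4.73 FPKM and p38 alpha (MAPK14) at 4.41 and 4.16 FPKM. JNK1 and p38 alpha were named after their values were seen, for their place as DUSP substrates. The MAP kinase with the largest log2 change was MAPK6 (ERK3), an atypical MAP kinase, at 8.58 and 14.2 FPKM. The median of the list was -0.04, and 0.12 after the rescaling to equal sums, so its sign depends on the scale.

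Upstream of the MAP kinases, 6 MAP kinase kinases had log2 changes between -0.37 for MAP2K2 and 0.42 for MAP2K7. Of 22 MAP kinase kinase kinases, 14 were higher and 8 lower, with a median of 0.17. Among all genes 57.3% were higher, with a median of 0.06. MAP3K9, an activator of JNK, was at 1.07 FPKM with shNC and 3.14 FPKM with shKIAA1429 and had the largest change of the list. MAP3K20 was at 5.43 and 9.57 FPKM, and MAP3K21, at 13.2 FPKM with shKIAA1429, had the lowest change of the list, -0.56. Among the 6 scaffold and anchoring genes the median was 0.17, and PEA15, which holds ERK in the cytoplasm, was at 37.7 and 57.5 FPKM.

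Downstream, 4 of 8 kinases activated by MAP kinases were higher and 4 lower, against 57.3% higher among all genes. RPS6KA3, the ERK target RSK2, was at 5.01 FPKM with shNC and 7.71 FPKM with shKIAA1429. MAPKAPK2, a target of p38, was at 50.4 and 36.3 FPKM. Among 9 listed genes that serve as a readout of ERK signaling, which include DUSP6, 5 were higher and 4 lower. Their median was 0.21, against 0.06 for all genes, of which 57.3% were higher. CCND1, cyclin D1, was at 42.4 and 96.6 FPKM, a log2 change of 1.17, and the receptor gene EPHA2 was at 37.5 and 61.7 FPKM. ETV5, an ETS factor, was at 5.32 and 10.2 FPKM. The 4 lower genes were PHLDA1, with the lowest log2 change of the list at -0.30, SPRY4 at -0.17, EPHA4 at -0.075 and ETV4 at -0.003. PHLDA1, SPRY4 and EPHA4 were named after their values were seen.

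Of 15 immediate early genes, which cells transcribe within minutes of MAP kinase activation, 9 were lower and 6 higher with a median of -0.19. Among all genes 57.3% were higher, with a median of 0.06. The list includes genes known from earlier results of these libraries. MYC was at 28.5 FPKM with shNC and 4.53 FPKM with shKIAA1429, and EGR1 at 52.1 and 15.8 FPKM, which is a log2 change of -1.66. ATF3, a stress-induced factor, was at 4.98 and 13.1 FPKM, a log2 change of 1.24. DUSP1, an immediate early gene by its induction, lay between these, at 0.02.

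Other proteins that restrain MAP kinase signaling were also listed. Of 5 Sprouty and SPRED genes, feedback inhibitors of the RAS and ERK pathway, 4 were higher and 1 lower. Their median was 0.21, against 0.06 for all genes, of which 57.3% were higher. SPRY2 and SPRY4 are also among the ERK readout genes. The value of SPRY2 is the median of both lists, so their equal medians are not separate observations. SPRY2 was at 12.4 FPKM with shNC and 14.5 FPKM with shKIAA1429, and SPRED3, at 0.967 and 1.82 FPKM, had the largest log2 change of this list, 0.52. All 5 listed genes of other phosphatases that act on MAP kinases (5 of 5) had log2 changes above 0, against 57.3% of all genes, with a median of 0.13 against 0.06. PPP2CB, a catalytic subunit of PP2A that was named after its value was seen, was at 0.04 and so below the median of all genes, and the count does not hold after centring on that median. PPM1D (WIP1), a p53-induced phosphatase of p38, was at 7.38 and 10.9 FPKM.

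**Figure D4:**
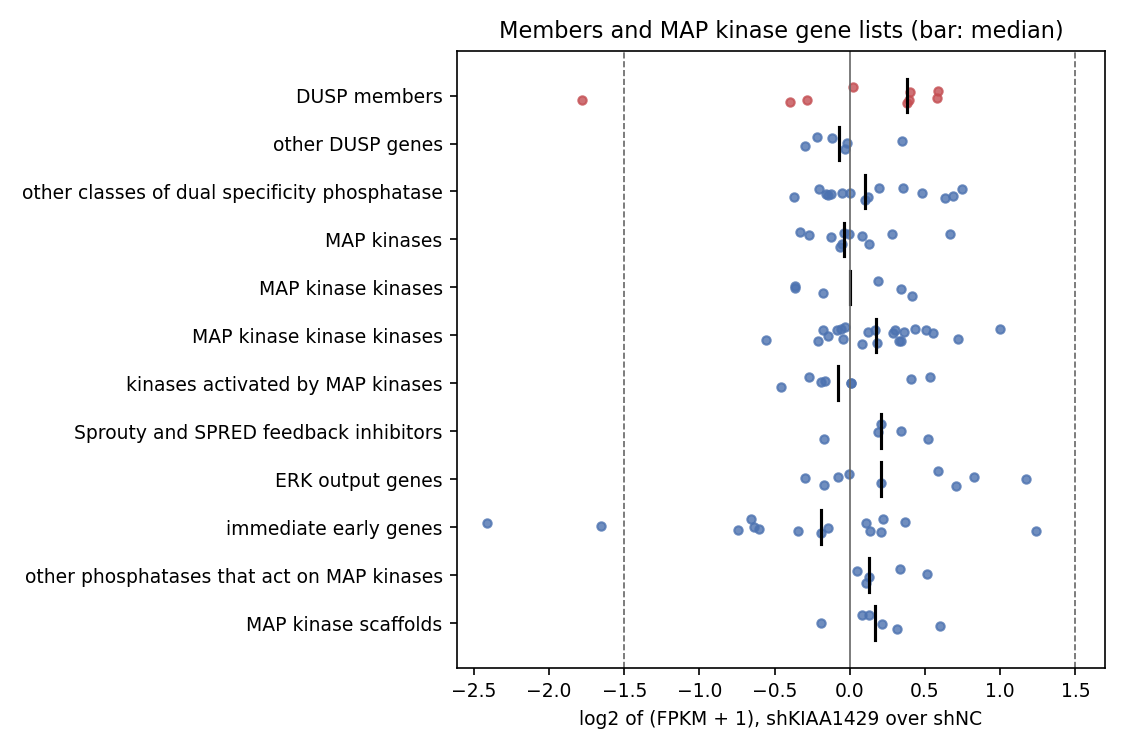
Log2 change (shKIAA1429 over shNC, FPKM + 1) of the 9 DUSP members (red) and of 11 lists of related genes (blue), for genes whose mean FPKM reached 1, with bars for medians and dashed lines at 1.5. The medians of the lists lie between -0.19 and 0.21 and that of the members is 0.38, and besides DUSP3 the genes past the dashed lines are MYC and EGR1.

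Because KIAA1429 belongs to the m6A writer, the 3′ UTRs were searched for GGACT, the most typical form of the m6A consensus, on the transcript strand. A match is a description of letters and not a methylated site. The DUSP3 transcript used (4110 bases) has a 3′ UTR of 3488 bases, longer than in the other members and at the 85.9 percentile of 10104 genes. It holds 3 copies, or 0.860 per kilobase, against a median of 0.586. DUSP5 holds 4 copies (3.58 per kilobase) and DUSP1 holds 2 (2.98 per kilobase), the 2 highest densities of the 9. DUSP6 and DUSP7 hold 2 copies each and DUSP16 holds 1. DUSP10, DUSP12 and DUSP14 hold 0 copies in their 3′ UTRs, while 61.1% of the 10104 genes hold at least 1.

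The first copy after the stop codon is shown with 10 bases on each side and the motif in capitals, on the minus strand of GRCh38. It is given for the member with the largest difference in level (DUSP3). On the main scale, DUSP6 had the highest log2 change and DUSP1 the smallest, and their copies are given too. DUSP10, close to DUSP6 in log2 change, has no copy to show. The copy starts 1587 bases after the stop codon in DUSP3 (chr17:43768007-43768031), 262 bases after it in DUSP6 (chr12:89348977-89349001) and 36 bases after it in DUSP1 (chr5:172768711-172768735).
DUSP3: gaaatatcagGGACTtttgttgact
DUSP6: acccatgcagGGACTgggattcgag
DUSP1: catcccattgGGACTccatgctcct

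Promoter sequences were searched as well, since the genes of MYC and EGR1, which bind CACGTG and GCGGGGGCG, were among those that differed between the libraries. RefSeq promoters of GRCh38.p14, from 250 bases before to 50 bases after the start, were matched for 7 of the 10 members (8 promoters, DUSP10 having 2). Both strands were read. CACGTG was found in 1 of the 8, that of DUSP1, and in 7.26% of 35116 promoters. GCGGGGGCG was found in 0 of the 8 and in 5.07% of all. TGACGTCA, the cAMP response element bound by CREB and ATF proteins, was found in the DUSP1 promoter alone and in 1.85% of all. The 250 bases before the start are shown for DUSP1 and DUSP3, the members with the smallest and the largest change in size on the main scale. The 3 motifs are in capitals where they occur, and a link between motifs and levels was not tested. These bases are chr5:172771196-172771445 for DUSP1 and chr17:43778978-43779227 for DUSP3, both on the minus strand, with a GC content of 74.4% and 73.6%.
DUSP1: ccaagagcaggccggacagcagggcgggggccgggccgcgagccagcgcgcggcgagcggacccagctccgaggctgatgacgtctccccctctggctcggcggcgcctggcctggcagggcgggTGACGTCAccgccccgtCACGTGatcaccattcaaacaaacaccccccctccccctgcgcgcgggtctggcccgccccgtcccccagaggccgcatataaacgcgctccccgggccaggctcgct
DUSP3: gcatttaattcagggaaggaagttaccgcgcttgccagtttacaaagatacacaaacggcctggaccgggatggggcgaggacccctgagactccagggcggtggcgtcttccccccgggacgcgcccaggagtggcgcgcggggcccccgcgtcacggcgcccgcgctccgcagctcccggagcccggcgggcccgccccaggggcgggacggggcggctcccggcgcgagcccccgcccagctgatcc

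In the DUSP1 stretch TGACGTCA and CACGTG stand close together, and in the DUSP3 stretch none of the 3 motifs (0 of 3) occurs. DUSP3 has 3 coding transcripts of 1019 to 4110 bases in GENCODE 29, DUSP6 has 4 of 567 to 4400 bases, and DUSP1, DUSP5, DUSP10 and DUSP12 have 1 each. The files give 1 value per gene, and how much of the DUSP3 difference lies in which transcript was not tested.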

How the data were processed

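Poly(A) RNA-seq values of ACHN cells came from 1 library with shKIAA1429 and 1 with shNC, grouped by the sample labels. The authors deposited FPKM values for 12014 genes, all protein-coding and all over 0.5 FPKM in 1 or both libraries. Per the labels, cutadapt 1.9, HISAT2 2.0.4 and StringTie 1.3.4d are among the tools of the submitters' processing, with DESeq2 and edgeR. Their settings are not given in the sources used here. FPKM keeps no fragment count, so the depth is unknown and counting intervals are not given.

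From the FPKM, log2 changes were computed with a pseudocount of 1 over the 10708 genes whose mean FPKM reached 1. With 1 library per group no test was run. A limit of 1.5 was taken from the paper. Genes were named by membership, by the largest changes of each of 11 lists, by likeness to DUSP3 and by nearness on the chromosome. Markers and the genes next to DUSP3 in rank were also named, and other genes are given as named after their values were seen. Members and lists were chosen with earlier results of these data known. Transcripts came from GENCODE 29, matched for 10628 of the 10708 genes, and promoters from RefSeq. For each gene the longest principal coding transcript was used. The calling of changes past the limit was tested on simulated data with large planted changes, and the search for overlapping genes on a small made-up layout. The other steps were not tested in this way. The alternatives were other pseudocounts, scalings, filters and limits. Python 3.11.15, NumPy 2.4.6, pandas 2.3.3, Biopython 1.88 and matplotlib 3.10.9 were used.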

Additional observations from a re-analysis of the deposited data

How the results depend on the processing

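The log2 changes were recomputed with pseudocounts of 0.1 and 5, after centring on the median of all genes, and after rescaling each library to a sum of 1000000 with or without mitochondrial genes, which made up 42.2% of the summed FPKM with shNC and 34.6% with shKIAA1429. With a pseudocount of 5, DUSP3 was at -1.48, so 0 members were lower by more than 1.5. After centring, DUSP1 was at -0.038. The other 43 of the 45 values for members kept their sign and their side of 1.5. Rescaling with mitochondrial genes moved the median of all genes up by 0.18 and moved the median of the members to 0.57, of the other DUSP genes to 0.065, of the other phosphatase classes to 0.30, of the MAP kinases to 0.12, of their kinases to 0.18 and of the kinases of those to 0.38, of the kinases they activate to 0.080, of the Sprouty and SPRED genes and the ERK readout genes to 0.40 each, of the immediate early genes to -0.021, of the other MAP kinase phosphatases to 0.31 and of the scaffolds to 0.36. With a floor of 5 on the mean FPKM, by which fewer genes are counted, the median of the MAP kinase kinase kinases was 0.31 and that of the ERK readout genes 0.64. Without genes that overlap on the same strand the median of the other MAP kinase phosphatases was 0.23. Among named genes that are no members, EGR1 was at -1.45 with a pseudocount of 5, and MAP3K9 and ATF3 were at 1.51 and 1.52 after rescaling with mitochondrial genes, where STYX and STYXL1 turned from below 0 to 0.15 each. Against 42 higher and 27 lower genes in all, a pseudocount of 5 gave 6 and 6, a pseudocount of 0.1 gave 114 and 60, and rescaling gave 135 and 32 with mitochondrial genes and 109 and 57 without. A floor of 5 on the mean FPKM left 24 higher genes, leaving out overlapping genes left 26, and a limit of 1 gave 174 and 96. No paired analysis was possible because each group had 1 library.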

Other observations

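Phosphatases of other classes that also act on both kinds of phosphorylated residue were compared in the same way. Of 16 names (Slingshot, PRL, CDC14 and CDC25 phosphatases and others), 15 were listed, and 9 were higher and 6 lower with shKIAA1429. The median log2 change was 0.10 and 0 passed 1.5. Among all genes 57.3% were above 0, with a median of 0.06, and 0.392% were higher and 0.252% lower by more than 1.5. The highest changes were those of PTPDC1, at 1.56 FPKM with shNC and 3.29 FPKM with shKIAA1429, CDC14B, at 2.16 and 4.10 FPKM, and CDC25B, an activator of cyclin-dependent kinases at entry into mitosis, at 9.92 and 15.9 FPKM. CDC25A, which acts from the G1 phase on, was at 2.08 and 3.30 FPKM, while CDC25C was at 2.11 and 1.70 FPKM. PTP4A2, of the PRL class, was the lowest of these genes by log2 change, at 31.3 and 23.9 FPKM, and its relative PTP4A1 was at 19.3 and 24.9 FPKM. CDC25A, CDC25C, PTP4A1 and PTP4A2 were named after their values were seen.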
